A study of Mus musculus with 12 samples.

Results

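The 9 genes described here encode proteins that turn light into an electrical signal in cone photoreceptors: the short-wavelength opsin Opn1sw, the transducin subunits Gnat2, Gnb3 and Gngt2, the phosphodiesterase subunits Pde6c and Pde6h, the channel subunits Cnga3 and Cngb3, and the cone arrestin Arr3. They are 9 of the 32093 protein-coding and long noncoding genes of the annotation, and were chosen by name. A locus was taken as the gene in GENCODE M21 (mm10) with 5 kb added on each side, and every differentially methylated region that overlapped a locus was kept: 40 of 193836 WGBS regions and 173 of 592906 bACE-seq regions. The regions come from whole retinas of mice on a C57 BL/6J background at postnatal day 21 (P21). The control animals, Cre-, carried no Cre transgene and are given the genotype WT in the labels. In the Tet tcKO animals, floxed Tet1, Tet2 and Tet3 were deleted in retinal progenitors by a Chx10-driven Cre-GFP transgene, which acts in a mosaic of cells and was bred to 2 copies per animal to limit that. Whole-genome bisulfite sequencing (WGBS) reads 5-methylcytosine (5mC) and 5-hydroxymethylcytosine (5hmC) together, and bACE-seq reads only 5hmC. The 12 libraries comprise 3 of each genotype for either assay. The deposited lists give 1 mean per group for each region, so the level in each library, the spread between libraries and the depth were not analysed here, and no test between the groups was made beyond the authors' own calling of the regions. The lists hold no expression values, and the labelled tissue could not be checked against marker genes.

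In the dark, cyclic GMP holds the cation channel of the outer segment open. Light-activated opsin switches on transducin, transducin releases the phosphodiesterase from its inhibitory subunit, and the phosphodiesterase hydrolyses cyclic GMP, so that the channel, built from Cnga3 and Cngb3 in cones, closes. Arrestin then binds the phosphorylated opsin and ends its activity. Rods use a parallel set of proteins from related genes. The TET enzymes oxidise 5mC to 5hmC, which is a step in the removal of cytosine methylation and is also a lasting mark in neurons. In whole retina a level averages over all cell types, and rods far outnumber cones in the wild-type mouse, so a change in a few cells and a smaller change in many cells cannot be told apart. The lists do not measure which cells each group held. By immunostaining, the study reports fewer cells with rod markers and more with cone markers in Tet tcKO retinas at P21. A change within cells and a change in the mix of cells therefore cannot be told apart either.

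At these genes the WGBS level was higher and the 5hmC level lower in Tet tcKO wherever a region was listed. All 40 WGBS regions were higher in Tet tcKO, with rises from 5.22 to 34.1 percentage points and a median of 13.9, beside a median change of 15.2 over all WGBS regions. All 173 bACE-seq regions were lower. These directions are those of the lists as a whole, in which 98.6% of WGBS regions were higher, 1.38% of WGBS regions were lower and 0.0353% of bACE-seq regions were higher. At least 1 WGBS region lay at 8 of the 9 loci, with Arr3 the exception, whereas 76.2% of all gene loci and 76.8% of protein-coding loci had a WGBS region that was higher in Tet tcKO. No member had a WGBS region that was lower, against 4.35% of all gene loci. A bACE-seq region lay at 9 of 9 loci, beside 88.8% of all gene loci and 88.3% of protein-coding loci. Having a region at all therefore sets the 9 genes little apart from other genes, and the sections that follow turn on where in each gene the regions lay and what levels they held.

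**Figure D1:**
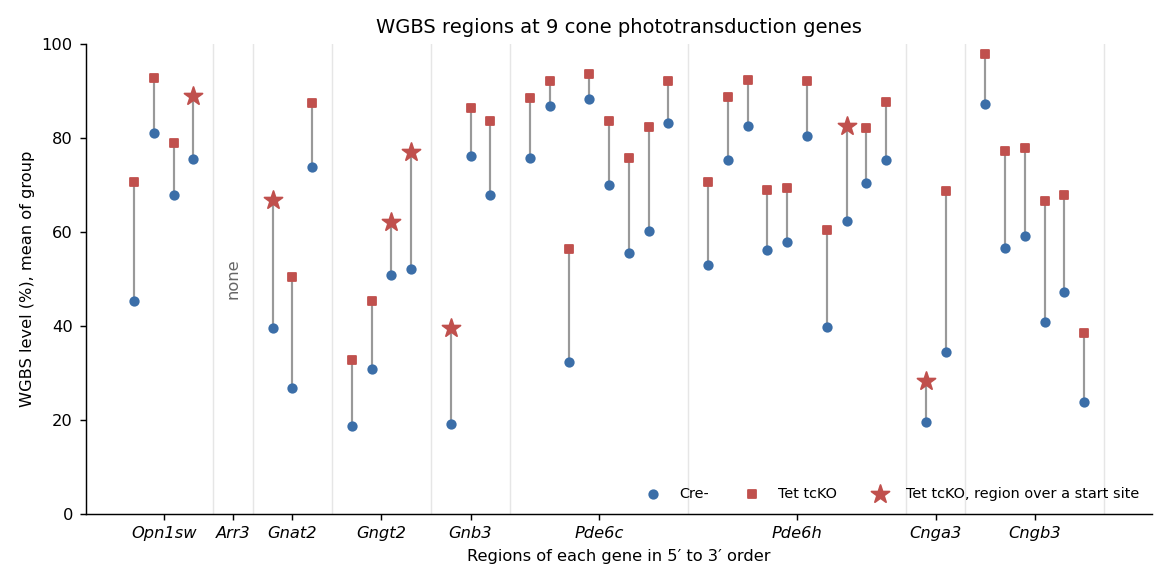
WGBS level (%, y axis) of each of the 40 regions at the 9 genes, with regions of a gene in 5′ to 3′ order along the x axis. Blue circles are the Cre- group means and red squares the Tet tcKO group means, with stars for regions that lie over a start site. In every region the Tet tcKO value is above the Cre- value, Cre- levels run from 18.6% to 88.4%, and Arr3 has no region.

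Most of these genes had regions near their start sites. Within 2 kb of an annotated start site, a WGBS region higher in Tet tcKO lay at 7 of 9 genes, beside 51.3% of protein-coding genes, and a bACE-seq region that was lower lay at 8 of 9, beside 79.9%. A count of regions over the start site itself was added after seeing the data. By that count a WGBS region lay over a start in 6 of the 9 genes, Opn1sw, Gnat2, Gngt2, Gnb3, Pde6h and Cnga3, compared with 7.84% of protein-coding genes. A bACE-seq region lay over one in 5 of 9, Gnat2, Gngt2, Pde6c, Pde6h and Cnga3, compared with 18.3%. Cngb3 had neither kind of region within 2 kb of its start, and Arr3 had a 5hmC region but no WGBS region there. Since the members were chosen by function with earlier results of these data known, these shares are a description and carry no p-value.

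**Figure D2:**
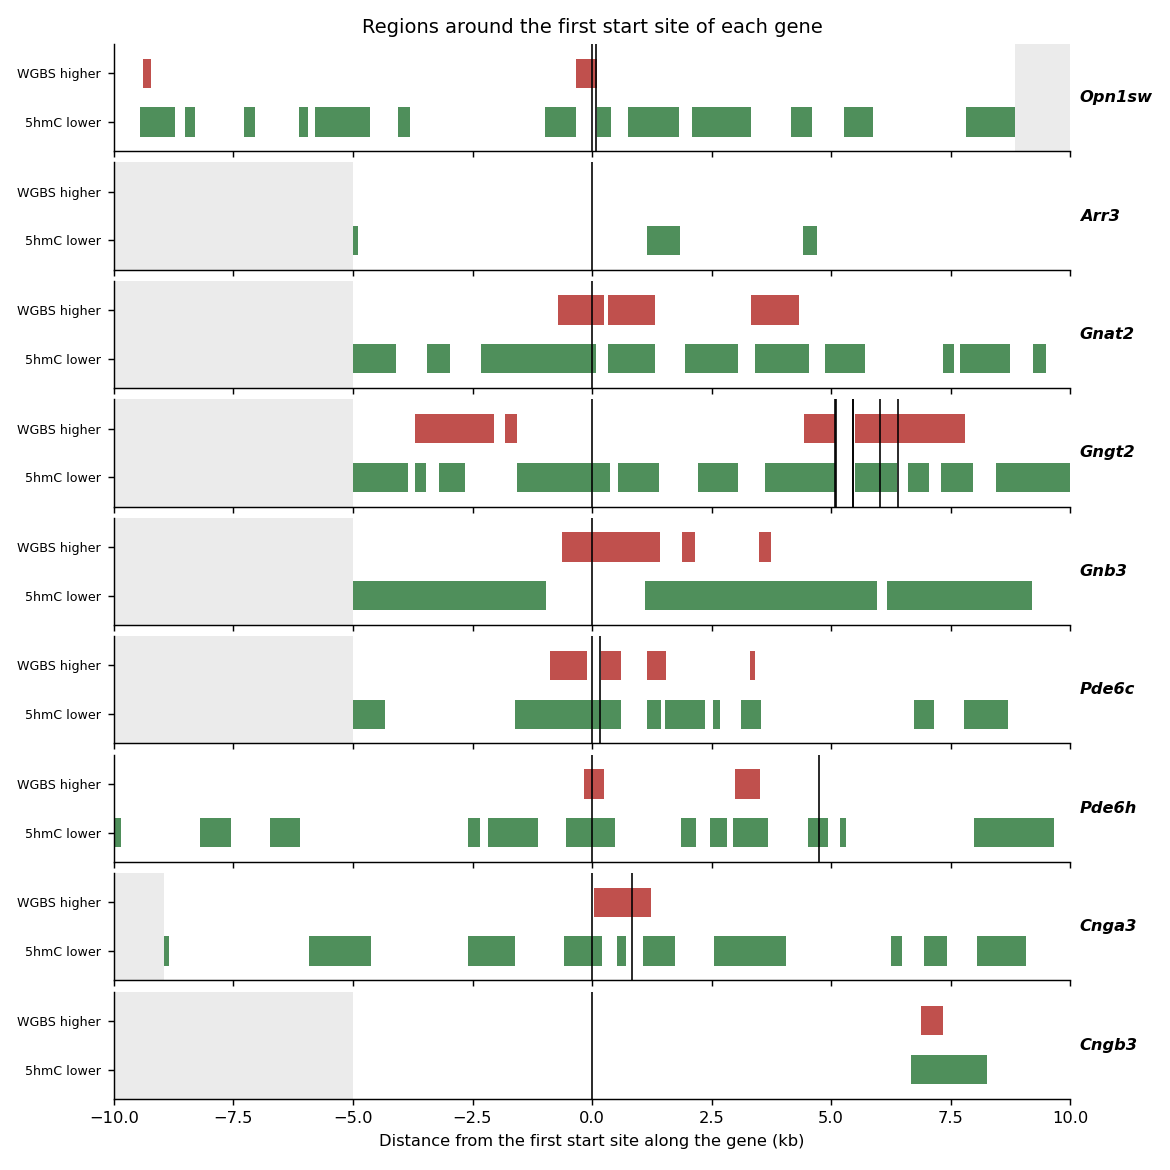
Extent of each region around the first annotated start site of the 9 genes, drawn to scale along the gene (x axis, distance in kb, positive downstream). Red bars are WGBS regions higher in Tet tcKO, green bars are bACE-seq regions lower in Tet tcKO, black lines are annotated start sites, and grey marks sequence outside the locus, where regions are not drawn. Red bars cross a black line in Opn1sw, Gnat2, Gngt2, Gnb3, Pde6h and Cnga3, sit on both sides of the start in Pde6c, and are missing at the starts of Arr3 and Cngb3.

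Opn1sw encodes the short-wavelength cone opsin, the light-sensitive protein of S cones. The gene lies on the minus strand at chr6:29376671-29388468 (mm10), where the record reaches beyond the transcripts of the basic annotation. Its start-site region, chr6:29380420-29380843, ran from 330 bp before the first start site to 93 bp after it, over 5′ untranslated sequence, and held 4 CpGs. Modification there was already high at 75.6% in Cre- and rose by 13.4 points to 89.0% in Tet tcKO. The 3 other WGBS regions of the locus lay 9.22 kb or more upstream in no annotated gene. The middle of them, chr6:29392569-29392841, had the largest area statistic of the locus, the sum of the authors' test statistics over the CpGs of a region, and rose from 81.1% to 92.8%. The nearest, chr6:29389737-29389913, rose from 67.8% to 78.9%. The farthest, chr6:29393435-29394370, rose from 45.4% to 70.6%, the largest rise at this locus. The 250 bases before the RefSeq start are shown because the region over the start covers them although they contain no CpG, so that its 4 CpGs lie to either side (minus strand, chr6:29380514-29380763, CpGs would be in capitals).
Opn1sw promoter: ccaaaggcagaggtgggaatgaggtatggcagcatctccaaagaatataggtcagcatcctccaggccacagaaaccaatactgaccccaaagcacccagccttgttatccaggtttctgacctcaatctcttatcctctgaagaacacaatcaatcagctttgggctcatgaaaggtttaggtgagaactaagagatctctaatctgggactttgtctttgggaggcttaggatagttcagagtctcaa
Among all 32817 RefSeq promoter windows of this length, 7.87% held no CpG and the median was 6 CpGs. The 6 windows matched to 5 of the members had a median of 1.5.

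5hmC was listed on both sides of the Opn1sw start site rather than over it. The upstream region, which ended 330 bp before the start, fell from 22.5% in Cre- to 3.40% in Tet tcKO. The downstream region, which began 93 bp after the start, fell from 13.6% to 3.37%. The WGBS region thus filled the gap between them, sharing a boundary CpG with each. The 2 bACE-seq regions of the locus with the largest area statistics lay in the gene body, from 14.8% to 4.14%, and upstream inside the gene record, from 23.7% to 7.15%.

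Gnat2 encodes the alpha subunit of cone transducin, which carries the signal from opsin to the phosphodiesterase. At the gene (plus strand, chr3:108092789-108101432) 3 WGBS regions were listed, none beyond 4.33 kb from the start. The region over the start site, chr3:108092074-108093046, with 21 CpGs, rose from 39.6% to 66.7%, or 27.1 points, which was at least as large a change as in 89.4% of all WGBS regions. The next, over coding exon and intron sequence at chr3:108093122-108094111, rose from 26.7% to 50.5%. Together these 2 regions held 34 of the 46 CpGs within 2 kb of the start, at a mean of 34.7% in Cre- and 60.5% in Tet tcKO. The third, farther into the gene, started high and rose from 73.8% to 87.5%. At Gnat2 the lowest Cre- levels and the largest rises were thus at the 5′ end.

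5hmC at the Gnat2 start was listed over the same sequence. A region of 28 CpGs that ran from 2313 bp upstream to 72 bp downstream of the start fell from 17.2% to 3.23%. The bACE-seq region at chr3:108093122-108094111 had exactly the same limits and the same 13 CpGs as the second WGBS region, and its level fell from 15.1% to 2.27% while the WGBS level of those CpGs rose. The highest 5hmC level of the locus in Cre-, 22.9%, was in the gene body from 1938 bp after the start, and 6.77% was left there in Tet tcKO. Farther on, under the third WGBS region, 5hmC fell from 15.7% to 4.48%.

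Gngt2 encodes the gamma subunit of cone transducin. Of the 9 genes it had the largest share of its CpGs in a WGBS region, 42.1% (107 of 254), and also the largest share in a 5hmC region, 79.5%. It has 7 annotated start sites, all on the plus strand (chr11:95837216-95845734). The first start had no WGBS region over it, although 5hmC there fell from 21.3% to 4.98%. At the group of starts farther downstream, the WGBS level of chr11:95841655-95842299 rose from 50.7% to 62.1% and that of chr11:95842709-95845006 from 52.0% to 77.1%. The 5′ part of the second of these regions, over 10 CpGs, held the highest 5hmC level at any of the 9 loci, 35.9% in Cre-, which was 7.82% in Tet tcKO. The other 2 WGBS regions were upstream of Gngt2 and inside Abi3, and the larger of them also overlapped Zfp652, so 3 of the 4 WGBS regions at this locus overlapped a neighbouring gene and cannot be assigned to Gngt2 alone. That larger region, with 48 CpGs, had the lowest Cre- level of all 40, 18.6%, and reached 32.8%. The smaller rose from 30.8% to 45.3%. The bACE-seq region with the largest area statistic at Gngt2 lay farther upstream, over Abi3, Phospho1 and Zfp652, and fell from 9.13% to 2.484%. The bACE-seq region chr11:95840842-95842299, over the start at 95842295, fell from 15.6% to 4.92%. The starts at 95842309, 95842668 and 95842670 had no region of either assay over them.

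Gnb3 encodes the beta subunit of cone transducin and is also used in ON bipolar cells, so its levels in whole retina need not come from cones. Its start-site region, chr6:124838861-124840914 on the minus strand, ran from 639 bp before to 1414 bp after the start and held 37 CpGs. The level rose from 19.1% to 39.5%, and so was low in both groups. No 5hmC region lay over that start. The nearest ended 961 bp upstream, where 5hmC fell from 20.3% to 5.05%, and began 1101 bp downstream, where it fell from 25.9% to 8.29% across nearly the whole remaining gene. The 2 other WGBS regions were intronic, inside that long 5hmC region, and the nearer to the start rose from 76.1% to 86.4%. The sequences of 1 intronic WGBS region here and 1 in Pde6c are shown, with CpGs in capitals, because they are short enough to print whole and let the spacing of the CpGs be seen. The Gnb3 region at chr6:124836527-124836778 (minus strand, extended by 1 base to close its last CpG) rose from 67.8% to 83.5%.
Gnb3 intronic region: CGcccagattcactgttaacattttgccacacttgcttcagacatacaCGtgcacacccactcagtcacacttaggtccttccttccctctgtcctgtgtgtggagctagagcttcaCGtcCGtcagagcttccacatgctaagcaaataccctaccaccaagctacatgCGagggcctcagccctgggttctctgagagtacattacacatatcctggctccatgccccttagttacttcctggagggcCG

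Pde6c encodes the catalytic subunit of the cone phosphodiesterase, which hydrolyses cyclic GMP. At chr19:38132781-38183958 on the plus strand, 8 WGBS regions were listed, none over a start site, although 47 of the 77 CpGs within 2 kb of its start sites were in one. The region from 883 to 115 bp upstream rose from 75.7% to 88.5%. The region over coding sequence, from 188 to 602 bp downstream, rose from 86.8% to 92.2%, near the top of the scale in both groups. In an intron, at chr19:38133929-38134336, the level rose from 32.2% to 56.4%, the largest rise at this gene. A longer intronic region, chr19:38154577-38155995, rose from 55.5% to 75.7%. The 2 regions with the smallest rises, 5.37 and 5.22 points, had Cre- levels of 86.8% and 88.4%, close to the upper limit of the scale.

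5hmC at Pde6c was listed across the start without a break, from 1607 bp upstream to 602 bp downstream over 46 CpGs, and fell from 18.1% to 3.76%. That region took in both WGBS regions that flank the start. Farther into the gene, a WGBS region of 6 CpGs at chr19:38163267-38163400 (plus strand, likewise extended by 1 base) rose from 60.2% to 82.4%. It began at the same CpG as a longer 5hmC region that fell from 19.8% to 3.48%.
Pde6c intronic region: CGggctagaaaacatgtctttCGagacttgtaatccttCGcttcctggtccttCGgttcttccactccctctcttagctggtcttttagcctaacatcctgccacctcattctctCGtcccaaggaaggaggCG

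Pde6h encodes the inhibitory gamma subunit of the cone phosphodiesterase. The locus had 10 WGBS regions, the most of the 9 genes, but 7 of them lay more than 12 kb before the first start site of the basic transcripts and overlapped Erp27 or Arhgdib, since the gene record of Pde6h (chr6:136923832-136968865, plus strand) overlaps Arhgdib. These 7 say as much about the neighbours as about Pde6h. Of the other 3, the start-site region chr6:136954349-136954772 had the largest area statistic and rose from 62.3% to 82.5% over 8 CpGs. An intronic region rose from 70.5% to 82.1%, and a region in untranslated exon sequence rose from 75.3% to 87.7%. Over the start, 5hmC fell from 19.5% to 6.36%, unlike at Opn1sw and Gnb3, where 5hmC regions lay to the sides of the start. Over the downstream start site 5hmC fell from 9.80% to 3.63% with no WGBS region. The 2 bACE-seq regions with the largest area statistics were again in the neighbours, from 13.7% to 2.62% in Erp27 and from 12.01% to 3.18% in Arhgdib. The 250 bases before the RefSeq start of Pde6h hold 2 CpGs, both inside the 5hmC region and the WGBS region over the start (plus strand, chr6:136954273-136954522, CpGs in capitals).
Pde6h promoter: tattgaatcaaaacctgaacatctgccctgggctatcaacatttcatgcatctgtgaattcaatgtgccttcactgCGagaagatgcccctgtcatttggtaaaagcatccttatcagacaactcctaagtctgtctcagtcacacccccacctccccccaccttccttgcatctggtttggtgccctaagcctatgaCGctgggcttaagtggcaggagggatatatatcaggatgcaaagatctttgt

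Cnga3 encodes the alpha subunit of the cone cyclic GMP-gated channel, the subunit that can form a channel by itself. Only 2 WGBS regions were listed at this locus (chr1:37214434-37263384, plus strand). The region over the second start site, chr1:37218414-37219620, held 29 CpGs at a low level in both groups, 19.6% in Cre- and 28.2% in Tet tcKO. The intronic region chr1:37239151-37239573 rose from 34.5% to 68.6%. That rise of 34.1 points was the largest at the 9 genes and was at least as large as the change in 96.2% of all WGBS regions. In contrast to the sparse WGBS regions, 29 bACE-seq regions covered 53.9% of the CpGs of the locus. The 2 with the largest area statistics were in the gene body, where 5hmC fell from 11.6% to 3.95% and from 13.3% to 3.15%. At the first start site 5hmC fell from 9.14% to 1.29%. A short region between the start sites had the lowest Cre- 5hmC level of all 173, 3.12%, and 0.543% in Tet tcKO. From 1056 bp after the first start, in a region that overlaps the end of the WGBS region, 5hmC was at its highest for this gene, 27.7% in Cre- and 6.52% in Tet tcKO. The first RefSeq promoter window precedes a RefSeq start at 37218278, upstream of the first GENCODE start at 37218379 used above. Both RefSeq windows are printed since the WGBS region covers the second and not the first (plus strand, chr1:37218028-37218277 and chr1:37218955-37219204, CpGs in capitals).
Cnga3 first promoter: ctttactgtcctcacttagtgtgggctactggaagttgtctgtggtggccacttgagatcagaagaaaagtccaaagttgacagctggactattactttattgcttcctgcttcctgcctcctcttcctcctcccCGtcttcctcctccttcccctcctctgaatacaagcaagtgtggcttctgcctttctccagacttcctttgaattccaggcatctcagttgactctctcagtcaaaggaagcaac
Cnga3 second promoter: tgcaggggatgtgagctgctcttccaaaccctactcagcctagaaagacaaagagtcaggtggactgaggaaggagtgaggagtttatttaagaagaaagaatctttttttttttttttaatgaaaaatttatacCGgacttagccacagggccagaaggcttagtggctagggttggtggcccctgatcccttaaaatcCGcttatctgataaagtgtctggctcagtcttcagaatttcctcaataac

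Cngb3 encodes the beta subunit of the cone channel and is the longest of the 9 genes, 230 kb on chr4:19280850-19510623 (plus strand). It also had the sparsest CpGs, 5.40 per kb, and the smallest share of CpGs in a 5hmC region, 22.3%. Within 2 kb of its start site there were only 14 CpGs and no region of either assay. Its 6 WGBS regions were all intronic. The first, 6.88 kb into the gene, was at 87.3% in Cre- and 97.8% in Tet tcKO, the highest Tet tcKO level of the 40. A group of 3 regions, from 50.2 to 53.2 kb into the gene, rose from 59.2% to 77.9%, from 40.8% to 66.5% and from 47.3% to 67.9%. Its 41 bACE-seq regions, the most at any member, had Cre- levels from 5.66% to 24.4%, and the highest of them lay in this same group. The 2 with the largest area statistics fell from 18.7% to 6.32%, deep in the gene, and from 8.88% to 1.54%, within this group.

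Arr3 encodes cone arrestin, which quenches activated cone opsin. It is the only X-linked member (chrX:100605497-100618493, plus strand) and the only one with no WGBS region within 5 kb. With flanks of 10 kb, 9 of 9 members had one, Arr3 included. On X, 52.7% of protein-coding loci had a WGBS region higher in Tet tcKO, so that the lack of one was common on that chromosome. The 6 bACE-seq regions at Arr3 had Cre- levels from 8.46% to 20.8% and Tet tcKO levels from 0.894% to 6.22%. The highest Cre- level was in the upstream flank, and the other 5 regions reached at most 11.96%. In the region nearest the start, from 1146 bp downstream, 5hmC fell from 8.67% to 1.16%. The region with the largest area statistic lay downstream, in the neighbouring gene Pdzd11, and fell from 10.3% to 1.80%. The locus had 171 CpGs, 7.44 per kb, of which 26.3% lay in a 5hmC region, beside a median of 10.7% at protein-coding loci on X and 37.2% at all protein-coding loci. The promoter window is printed because, like that of Opn1sw, it holds no CpG (plus strand, chrX:100605247-100605496).
Arr3 promoter: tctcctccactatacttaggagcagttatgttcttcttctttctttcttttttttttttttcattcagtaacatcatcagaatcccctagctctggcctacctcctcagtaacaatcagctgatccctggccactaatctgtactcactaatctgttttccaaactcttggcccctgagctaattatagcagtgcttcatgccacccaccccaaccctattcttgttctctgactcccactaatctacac

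The promoter windows were also searched for the letters TAATCC on either strand, the core of sites bound by photoreceptor homeodomain factors such as CRX. The letters were found in 1 of the 6 member windows, that of Gnat2, and in 6.25% of the 32817 windows. The Gnat2 window precedes a RefSeq start that lies downstream of the GENCODE start site used above. All 250 of its bases are untranslated exon sequence by the GENCODE transcripts. No RefSeq window was matched for Gngt2, Gnb3, Pde6c and Cngb3.

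By position, WGBS regions were densest around start sites. Over the 9 genes, 231 of 557 CpGs within 2 kb of a start site were in a WGBS region (41.5%), against 136 of 2518 CpGs in the rest of the transcripts (5.40%) and 103 of 1308 outside (7.87%). The start-site share ran from 0% at Arr3 and Cngb3 to 73.9% at Gnat2, and its median over the 9 genes was 45.4%, beside 1.86% over all protein-coding genes. Mean levels of the CpGs in these regions rose from 44.5% to 61.9% near start sites from 61.3% to 78.9% in the rest of the transcripts, and from 43.6% to 57.6% outside. Levels near start sites were thus below those in the rest of the transcripts. The mean outside depends on 1 region. Of the 103 CpGs there, 48 were in the Gngt2 region that overlaps Abi3 and Zfp652, at 18.6% in Cre-. Those outside at Pde6h (44 CpGs) and Opn1sw (11 CpGs) were at 63.9% and 71.8%, above the mean in the rest of the transcripts. For 5hmC, 71.3% of start-site CpGs, 37.9% of CpGs in the rest of the transcripts and 48.5% of those outside were in a region, and mean levels fell from 18.2% to 4.60%, from 13.9% to 3.51% and from 14.8% to 3.65%. CpGs of 1 region share its mean, so these are averages of region means.

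Across all positions, 5hmC was low in Tet tcKO whatever its Cre- level. Over the 173 regions the median fell from 13.0% to 3.03%, beside medians of 13.9% and 3.08% over all bACE-seq regions. The level was above 10% in 126 regions in Cre- and in 0 in Tet tcKO, where the highest value was 9.20%. Weighted by CpGs, the level left in Tet tcKO was 25.1% of that in Cre- over the 9 loci. By gene it ran from 18.7% at Arr3 to 29.5% at Gnb3, whose CpG-weighted Cre- level, 21.8%, was also the highest, while that of Arr3, 11.0%, was the lowest. Below Gnb3 in Cre- came Opn1sw at 17.7%, Gnat2 at 16.4% and Gngt2 at 15.6%, then Pde6h at 13.9% and Pde6c at 13.7%. The channel genes Cnga3 and Cngb3 were at 12.1% and 12.2%. This weighting counts all CpGs of a region, also those beyond the locus. The Gngt2 value is lowered by a region of 100 CpGs at 9.13% that reaches past the locus edge. Inside the locus, Gngt2 was at 22.1% near start sites, 26.2% in the rest of the transcripts and 12.5% outside. Its place in the order therefore depends on the weighting. Without a spread between libraries it could not be said which of these neighbours in the order differ.

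**Figure D3:**
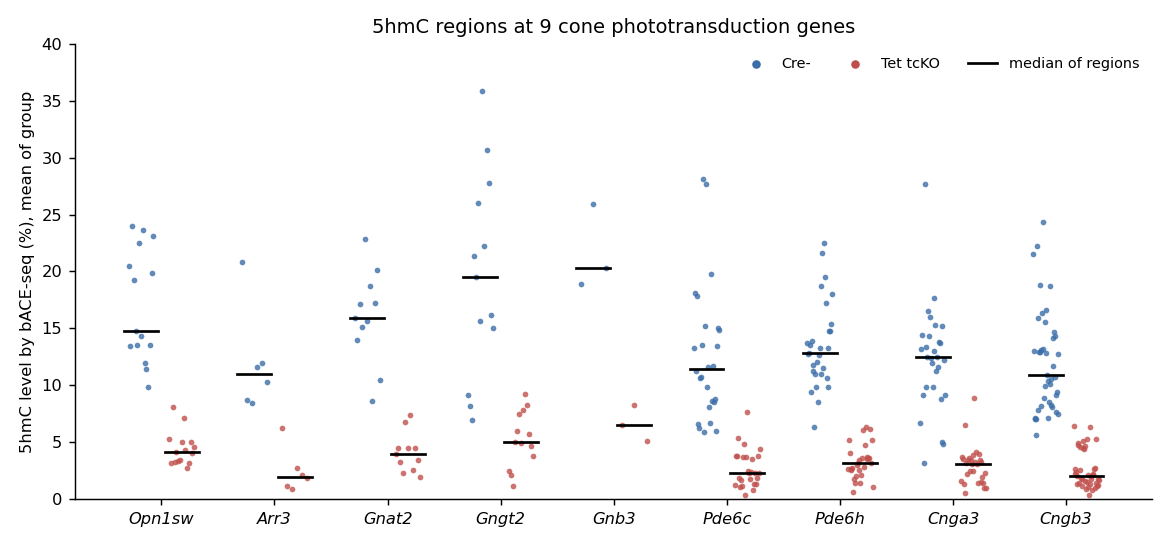
5hmC level by bACE-seq (%, y axis) of each of the 173 regions, by gene (x axis). Blue points are Cre- group means, red points Tet tcKO group means and black bars the median over the regions of a gene. All Tet tcKO values are at or below 9.20%, and the highest Cre- value, 35.9%, is at Gngt2.

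The assays were then compared where both listed the same sequence. Of the 40 WGBS regions, 36 overlapped a bACE-seq region by at least 1 base, beside 81.1% of all WGBS regions that were higher. Of the 173 bACE-seq regions, 42 overlapped a WGBS region, beside 24.1% of all that were lower, so most 5hmC regions overlapped no WGBS region, at these genes as over the whole lists. At the 331 CpGs of the 9 loci that were inside both kinds of region, 70.4% of the CpGs in WGBS regions (73.9% over all genes and intergenic sequence), the mean WGBS level rose from 53.1% to 69.7%. The 5hmC level of these CpGs fell from 16.9% to 4.31%. Subtracting 5hmC from the WGBS level gives an estimate of 5mC, which rose from 36.2% to 65.4%. The share of the WGBS signal that was 5hmC was 31.8% in Cre- and 6.18% in Tet tcKO. These CpGs were taken for lying in a WGBS region that was higher and a 5hmC region that was lower, so the estimate had to rise by more than the WGBS level. It subtracts means of regions with different limits and is approximate for any single CpG. At 11 of the 331 CpGs, 6 at Cnga3 and 5 at Gnb3, the 5hmC mean in Cre- was above the WGBS mean, which gives an impossible level of 5mC below 0. Without these 11 CpGs, a choice made after seeing the data, the estimate rose from 37.7% to 66.8%, and the 5hmC share in Cre- was 30.5%.

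The share of the Cre- signal that was 5hmC was 45.0% at Gngt2, where the estimate rose from 21.1% to 50.8% over 81 CpGs. It was 20.7% at Pde6h, where the estimate rose from 51.9% to 76.4%. At Gnat2, with 51 such CpGs and a share of 32.3%, the estimate rose from 33.6% to 67.2%. At Gnb3 the share was 45.0% over 18 CpGs but 35.8% over the 13 CpGs left without impossible values. At Cnga3 it was 63.7% over 21 CpGs and 38.9% over the 15 left, where the estimate rose from 15.0% to 39.6%. The values of Gnb3 and Cnga3 therefore depend on the limits of the regions, and no order of the genes was read from these shares.

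**Figure D4:**
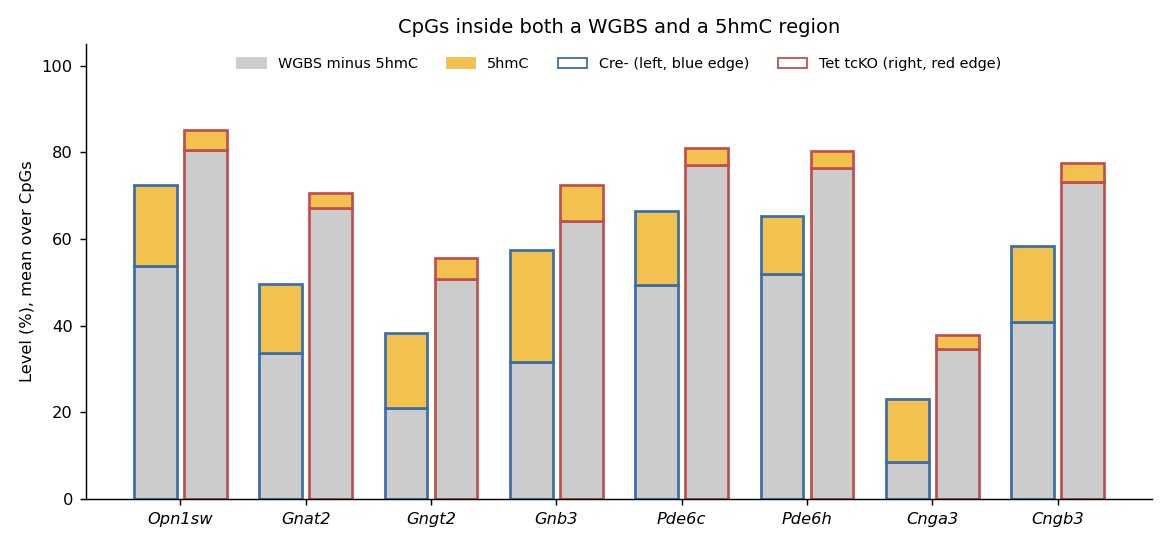
Mean level (%, y axis) over the CpGs inside both a WGBS and a bACE-seq region, for the 8 genes with such CpGs (x axis). Each bar is the WGBS level, split into 5hmC (yellow) and the remainder (grey), with Cre- on the left (blue edge) and Tet tcKO on the right (red edge). In all 8 genes the grey part is taller and the yellow part shorter in Tet tcKO, as the choice of CpGs fixes, and the bars of Gnb3 and Cnga3 include the 5 and 6 CpGs with a 5hmC mean above the WGBS mean in Cre-.

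To see how these genes stood beside the matching part of the rod cascade, each transducin, phosphodiesterase and channel gene was set beside its rod counterpart: Gnat1, Gngt1, Gnb1, Pde6a and Pde6b, Pde6g, Cnga1 and Cngb1. The 8 pairs hold 7 cone genes, since Pde6c was set beside both Pde6a and Pde6b and so enters 2 of them. In all 8 pairs the cone gene had the smaller share of its CpGs in a WGBS region. The share was 23.7% at Gnat2 and 61.5% at Gnat1, 15.9% at Gnb3 and 62.6% at Gnb1, and 6.39% at Cnga3 and 44.5% at Cnga1. The closest pair was Gngt2 with 42.1% and Gngt1 with 53.6%. The median was 15.5% over the 7 paired cone genes (10.0% over all 9) and 44.0% over the 8 rod genes, beside 6.18% over protein-coding loci.

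The rises were also smaller in the cone genes. The CpG-weighted change of WGBS regions was lower in the cone gene in 8 of 8 pairs, with 14.2 to 21.2 points over the 7 paired cone genes and 21.3 to 32.7 points over the rod genes. The closest pair, Gnat2 with 21.2 points and Gnat1 with 21.3, was nearly equal, and without a spread it could not be said to differ. Cre- levels in the WGBS regions of the 2 sets overlapped, with medians of 49.6% over the paired cone genes and 48.3% over the rod genes. 5hmC in Cre- was lower in the cone gene in 8 of 8 pairs, with medians of 13.9% and 23.1% over each set, whereas the share of CpGs in a 5hmC region was lower in 5 pairs and higher in 3, namely at Gnat2, Gngt2 and Gnb3. The share of 5hmC left in Tet tcKO had medians of 25.4% and 23.4%, and was lower in the cone gene in 3 pairs and higher in 5. Around start sites, the rod counterparts had a WGBS region over a start in 8 of 8 genes, beside 7.84% of protein-coding genes. A 5hmC region lay over one in 3 of 8, beside 18.3%. Of the CpGs within 2 kb of a start site, 43.0% were in a 5hmC region in the rod genes and 71.3% in the 9 cone genes. Pooled over CpGs, the gap between the sets in the share in a WGBS region was wider in the gene body. Over all 9 cone genes, Opn1sw and Arr3 included, 5.40% of CpGs there were in a WGBS region, and over the 8 rod genes 41.7%. The start-site shares over the same genes were 41.5% and 60.2%. Of the 1098 rod CpGs in a gene-body region, 448 were at Gnb1. The share at Gnb1 was 86.8% in the gene body and only 28.6% near start sites, so which gap is wider depends on this gene. Of the 2518 gene-body CpGs of the cone genes, 1220 were at Cngb3. Rod genes outside the pairs were not used here. Gnb1 is expressed in many cell types, and no test was made of any of these differences.

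**Figure D5:**
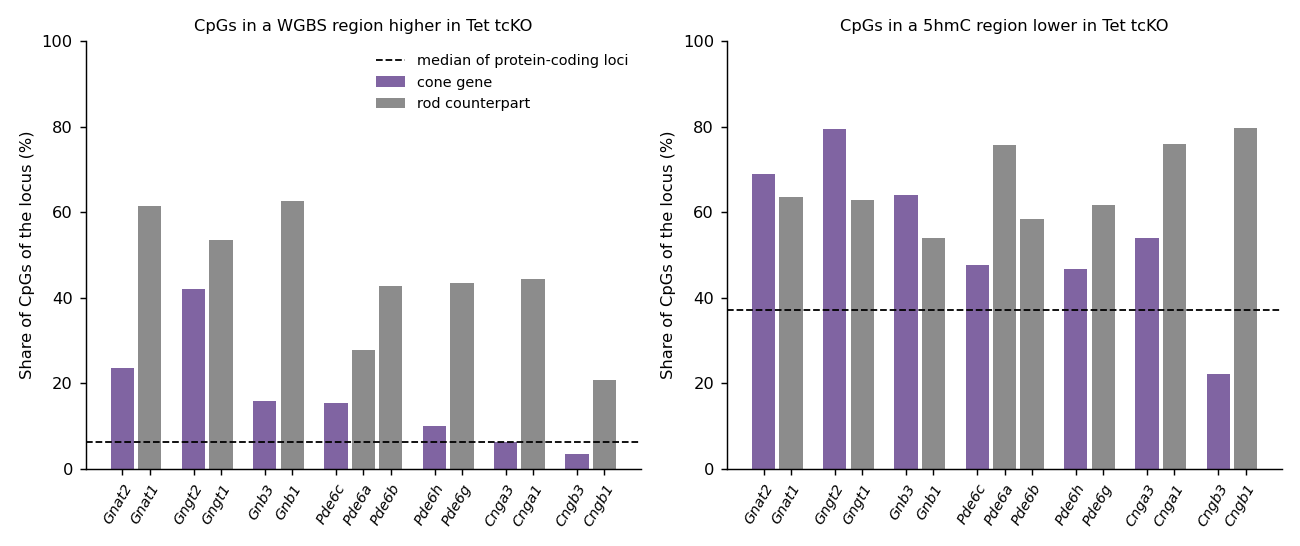
Share of the CpGs of each locus (%, y axis) inside a WGBS region higher in Tet tcKO (left) or a bACE-seq region lower in Tet tcKO (right), for cone genes (purple) beside their rod counterparts (grey), with the median of protein-coding loci as a dashed line. On the left each cone bar is below its rod counterparts, and on the right Gnat2, Gngt2 and Gnb3 are above theirs.

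Other genes of the photoresponse, shared by rods and cones or acting beside the cascade, varied widely in the share of CpGs in a WGBS region. The 14 genes were Rcvrn, Guca1a, Guca1b, Gucy2e, Gucy2f, Rgs9, Rgs9bp, Gnb5, Grk1, Slc24a2, Slc24a4, Kcnv2, Cabp4 and Cacna1f. A WGBS region higher in Tet tcKO lay at 14 of 14, beside 76.2% of all gene loci, and a lower one at 0 of 14, beside 4.35%. A 5hmC region that was lower lay at 14 of 14, beside 88.8%. The median share of CpGs in a WGBS region was 32.8%, from 7.88% at Slc24a2 to 78.1% at Rcvrn, the calcium sensor recoverin. The median lay between those of the cone and the rod genes, but single genes ranged below all 8 rod genes and above every gene of both sets. A WGBS region lay over a start site in 10 of the 14, beside 7.84% of protein-coding genes, and a 5hmC region in 5, beside 18.3%. The CpG-weighted rise at Kcnv2, a potassium channel subunit of both photoreceptor types, was 40.8 points, from 39.8% to 80.6%, more than at any of the 9 cone genes, where the largest was 21.2 points at Gnat2. Guca1a and Guca1b are neighbours and share regions, so they do not count as separate observations.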

How the data were processed

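Groups were taken from the sample labels. Per the study's methods and the submitters' processing notes, the authors trimmed reads with Trim Galore (0.4.4), aligned them to mm10 with Bismark (0.18.2), removed duplicates, extracted CpG levels with MethylDackel (0.6.1) and called regions with DSS, which smooths levels along the genome. Each deposited mean is the fraction of reads called modified, averaged by the authors over a group and a region, and is printed here as a percentage. The names of the lists put Cre- before Tet tcKO, and the means were read in that order. The deposited area statistic is a score made by the authors by summing test statistics over CpGs, used here only to rank regions and in 1 alternative. The deposited differences, the authors' own comparison, were not used. The change of a region is its Tet tcKO mean less its Cre- mean, in points of percent.

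Every region began and ended on a CpG of GRCm38 read in 1-based coordinates. Start sites came from the transcripts of the GENCODE M21 basic set. Levels over several regions were weighted by CpGs. Levels by gene count all CpGs of each region, also those beyond the locus, and levels by position only those inside it. Shares of a locus count reference CpGs inside a region. Regions named are all WGBS regions of a gene with up to 5, otherwise those ranked highest, with those at start sites, and regions cited for an extreme were chosen after their values were seen. Sequences came from RefSeq and GRCm38.p6. Counting of CpGs was tested on simulated data. The members, the rod counterparts and the other gene list were chosen with earlier results of these data known. Some genes of the other list are not reported here. They were dropped once results were known, though not on account of what they showed. Tables were handled with pandas (2.3.3). The alternatives changed the flank, the region filter, the overlap rule, the weights and the start-site window.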

Additional observations from a re-analysis of the deposited data

How the results depend on the processing

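Of 93 alternative values computed for the 11 results, 75 were within their limits (1.5 times for counts, otherwise the 95% binomial interval of the value as reported, with CpGs as trials, which covers counting only), 18 moved and 0 reversed. Leaving out a library was not possible because the lists hold group means only. No paired analysis was possible because the lists carry no values per replicate. The number of members with a WGBS region that was higher stayed between 7 and 9. The number with a 5hmC region that was lower was 9 in every setting that kept all members. It was 8 when Arr3 or Cngb3 was left out of the list. With at least 10 CpGs per region, 15 WGBS and 81 bACE-seq regions were left of 40 and 173, and the shares of CpGs in them were 7.26% and 32.4%, against 10.7% and 45.3%. With a difference of at least 0.1, 83 bACE-seq regions were left, and the shares were 9.19% and 26.1%. With a mean statistic per CpG past a p of 0.001 the shares were 8.44% and 39.0%. Counted by bases they were 4.59% and 22.8%. The WGBS share was 12.3% with flanks of 10 kb, and the 5hmC share was 42.8% with no flank. Without Cngb3, an alternative added after seeing the data, they were 13.8% and 55.0%. The share of 5hmC left in Tet tcKO, 25.1%, became 19.7% and 13.5% when 1 or 2 percentage points, as background, were subtracted from both levels. The study's own estimate of failed conversion in bACE-seq was about 2%. Asking for a 5hmC region over the start site itself, also added later, gave 5 genes in place of 8 within 2 kb.

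With no counts or spread deposited here, the depth behind a level is unknown, a region missing from a list does not show an unchanged level, and group means with 4 CpGs, as at the start of Opn1sw, rest on few sites.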
